A study of Mus musculus with 24 samples.

Results

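The 9 genes described here follow cells of the oligodendrocyte lineage from progenitor to newly forming oligodendrocyte: Pdgfra and Cspg4 for progenitors, Olig1, Olig2 and Sox10 for the lineage as a whole, and Gpr17, Bmp4, Enpp6 and Bcas1 for cells that have begun to differentiate. They were picked by symbol from the 36333 genes of the expression table, and all 9 were found and passed the filter on low values (0.5 TPM or more on average over the 24 libraries; TPM is transcripts counted per length and scaled to a fixed library total), as did 17267 genes in all. Each library was made from polyadenylated RNA of 1 male mouse, labelled C57BL6N and 12 to 16 weeks old. The methods of the study give another substrain and a narrower age range. Tissue was taken at 5 days after controlled cortical impact (5 dpi) or sham surgery. The impact is a model of traumatic brain injury (TBI) in which a piston strikes the exposed parietal cortex. The sham group (4 mice) was anaesthetised and had the scalp opened and sutured without craniotomy, and received vehicle. The 4 TBI groups, of 5 mice each, received vehicle, PLX3397, Anakinra, or PLX3397+Anakinra. PLX3397, an inhibitor of the colony stimulating factor 1 receptor (Csf1r) on which microglia depend, was given in chow at 290 mg/kg from shortly after injury until 5 dpi. Anakinra, a recombinant interleukin-1 receptor antagonist, was injected subcutaneously at 100 mg/kg shortly after injury and on the following days. All groups were wild type, and the tissue is labelled as cortex, whereas the methods of the study describe a lesioned brain quadrant that also held striatum, dorsal hippocampus and thalamus.

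Oligodendrocyte progenitors remain spread through the adult brain, divide after injury and give rise to new myelinating cells. They carry the PDGF receptor alpha (Pdgfra), through which PDGF-A drives their division, and the NG2 proteoglycan (Cspg4). When a progenitor leaves the cycle it passes through a premyelinating stage, marked by the receptor Gpr17, the phosphodiesterase Enpp6 and the protein Bcas1, before myelin genes are fully switched on. PLX3397 belongs to a class of inhibitors whose targets are receptor tyrosine kinases of the same family as Pdgfra, so that effects of such drugs on progenitors have been a matter of interest. Pdgfra is also made by fibroblasts and Cspg4 by pericytes, and neither transcript is specific to progenitors in whole tissue.

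Promoter sequence is shown for 4 genes, so that the stretches just before their starts can be read side by side. Of these 4, Pdgfra and Cspg4 were called lower and Bmp4 and Enpp6 higher in TBI mice with PLX3397 against those without it. Bcas1, not shown here, was also called higher. Beside these calls, 11.1% of all genes tested were called lower and 10.2% higher. Neither Bmp4 nor Enpp6 was called against vehicle mice, with PLX3397 alone or with the combination. The runs are from RefSeq (GRCm38.p6), each 5′ to 3′ on the strand of its gene, and cover chr5:75152001-75152250 (plus), chr9:56864854-56865032 (plus), chr14:46390670-46390919 (minus) and chr8:46986637-46986886 (plus). A RefSeq window was matched by symbol for 5 of the 9 members. The runs of Pdgfra, Bmp4 and Enpp6 hold the 250 bases before the RefSeq start. That of Cspg4 holds 179 bases, from 250 to 72 before it, since the GENCODE gene begins there. GENCODE places no exon of these genes in the stretches shown. Capitals mark E-boxes (CANNTG, the core bound by basic helix-loop-helix factors such as Olig1 and Olig2) and the SOX core (ACAAAG or ACAATG), both searched on both strands.
Pdgfra: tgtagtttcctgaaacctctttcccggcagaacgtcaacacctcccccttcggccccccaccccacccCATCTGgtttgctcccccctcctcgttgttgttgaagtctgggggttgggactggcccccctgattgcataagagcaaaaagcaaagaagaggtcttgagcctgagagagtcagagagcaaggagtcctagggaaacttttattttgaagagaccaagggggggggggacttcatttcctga
Cspg4: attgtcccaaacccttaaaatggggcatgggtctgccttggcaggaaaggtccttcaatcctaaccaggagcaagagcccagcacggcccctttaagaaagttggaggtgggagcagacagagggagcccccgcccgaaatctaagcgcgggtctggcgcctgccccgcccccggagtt
Bmp4: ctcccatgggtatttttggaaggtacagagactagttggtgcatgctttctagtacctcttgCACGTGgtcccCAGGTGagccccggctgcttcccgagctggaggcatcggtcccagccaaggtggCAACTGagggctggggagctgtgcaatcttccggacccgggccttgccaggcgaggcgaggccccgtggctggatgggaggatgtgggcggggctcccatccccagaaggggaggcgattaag
Enpp6: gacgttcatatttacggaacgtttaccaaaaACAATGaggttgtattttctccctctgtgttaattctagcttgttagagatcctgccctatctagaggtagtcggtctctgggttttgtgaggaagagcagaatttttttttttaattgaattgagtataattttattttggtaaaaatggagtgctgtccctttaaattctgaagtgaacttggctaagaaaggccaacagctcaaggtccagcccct
Bmp4 had 3 E-boxes, starting 188, 177 and 123 bases before its start, and Pdgfra had 1, starting 182 bases before. Enpp6 had 1 SOX core, starting 219 bases before, and the Cspg4 stretch had neither. Of the 32851 RefSeq windows, 66.2% held an E-box and 25.2% a SOX core within the same 250 bases, and 55.3% and 19.1% within the same 179 bases, so these letters are common and are given as a description.

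The loci, in GRCm38 with the GENCODE gene bounds, were Pdgfra on chromosome 5 (75152292 to 75198215), Cspg4 on chromosome 9 (56865033 to 56899870), Olig2 (91225457 to 91228677) and Olig1 (91269772 to 91271933) on chromosome 16, Sox10 on chromosome 15 (79154908 to 79165240), Bmp4 on chromosome 14 (46383520 to 46390669), Enpp6 on chromosome 8 (46986887 to 47096762), Gpr17 on chromosome 18 (31942997 to 31949636) and Bcas1 on chromosome 2 (170346991 to 170427845). Olig2 and Olig1 are neighbours, 41.1 kb apart on the same strand. Exons of Gpr17 share 188 bases with those of Lims2 on the opposite strand, and exons of Bcas1 share 34 bases with those of the antisense gene Bcas1os2. Whether reads were counted by strand is not given in the sources used here, so in those bases reads of the partners may not be told apart.

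In sham mice the members spanned a wide range of levels. Bcas1 (183 ± 3.85 TPM, SD, n = 4) and Olig1 (180 ± 7.31 TPM) had the highest values, and Enpp6 (6.09 ± 0.861 TPM) and Bmp4 (4.35 ± 0.46 TPM) the lowest. If the deposited values are not scaled by transcript length, this order also depends on length. The files hold TPM and no counts, so sequencing depth is unknown. All 11 neuron markers listed to check the labelled brain tissue were detected, and summed to 7585 to 7892 TPM in sham mice. All 9 genes differed among the 5 groups by the limma F-test at an adjusted p below 0.05, as did 51.9% of all genes tested. The largest F values were those of Gpr17 (58.5), Olig1 (58.4) and Enpp6 (57.4), and that of Pdgfra (15.8) was the smallest. Since the samples were whole tissue, a lower level of a transcript can come from fewer cells of a type or from less RNA per cell, and these cannot be told apart.

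**Figure D1:**
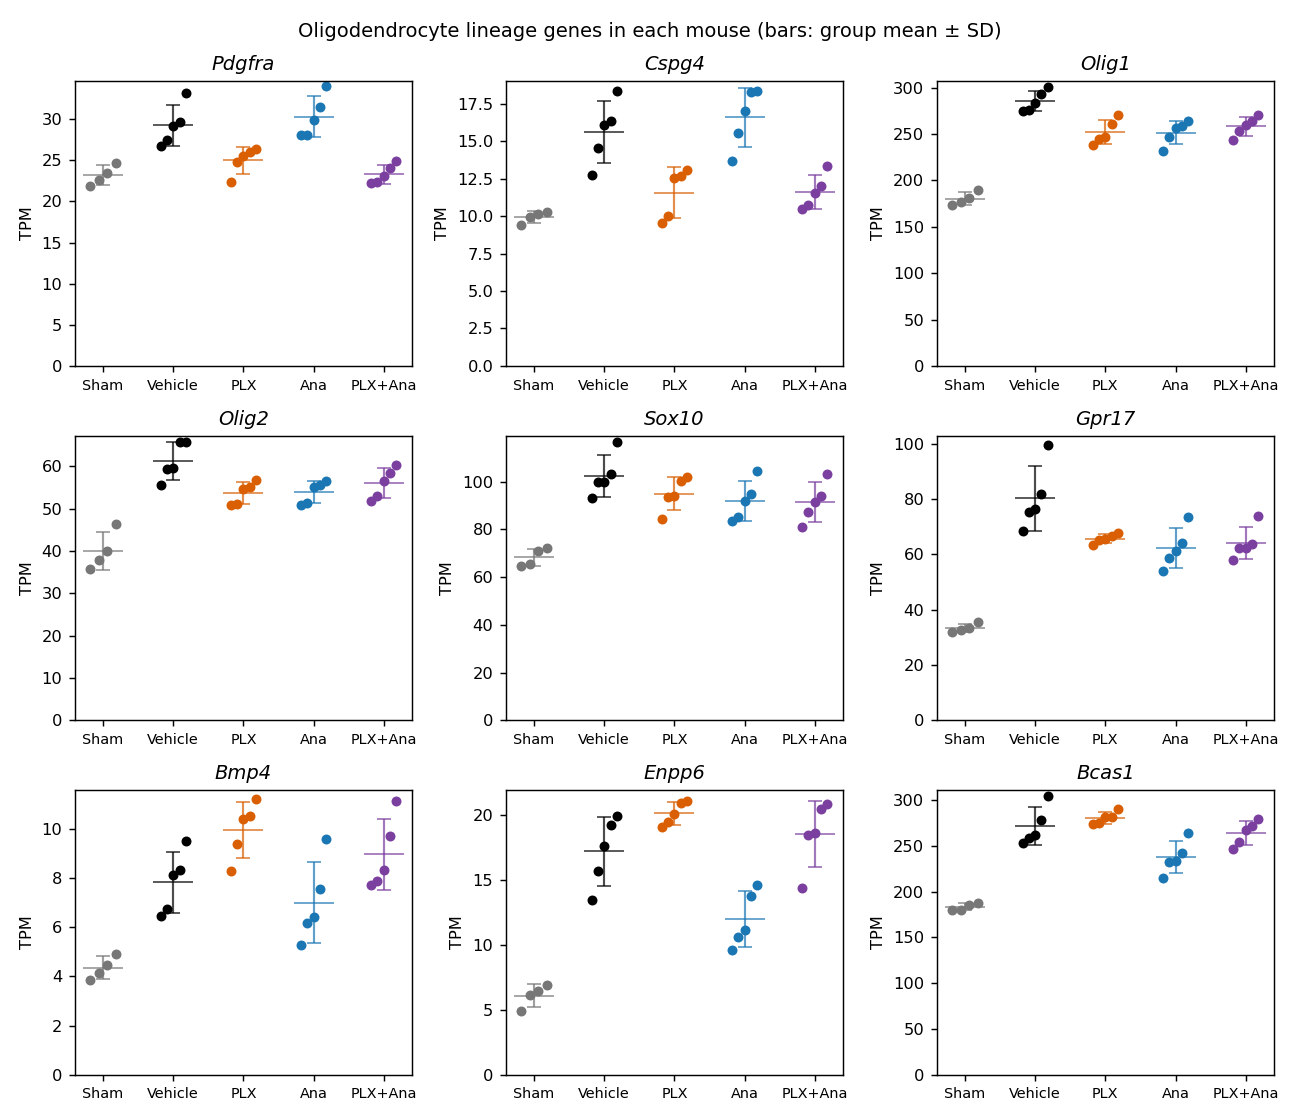
Levels of the 9 members in TPM (vertical axes, linear from 0) in each of 24 mice, by group, with group mean and SD (PLX, PLX3397; Ana, Anakinra). Sham mice lie lowest for most genes, Pdgfra and Cspg4 lie nearer to sham in both groups given PLX3397 than in the other TBI groups, and Enpp6 does not.

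Injury alone was examined by setting vehicle-treated TBI mice against sham mice. All 9 members rose after TBI. Enpp6 and Gpr17 rose most, by 2.82-fold and 2.40-fold in mean TPM, and Pdgfra rose least, by 1.26-fold. For every member the lowest vehicle mouse lay above the highest sham mouse. Beside these counts, 26.6% of all genes tested were called higher and 27.7% lower at an adjusted p below 0.05, and 42.7% had groups that did not overlap, so a called rise was common in this comparison.

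Among the progenitor genes, Pdgfra stood at 21.9, 22.6, 23.5 and 24.7 TPM in sham mice and at 26.8, 27.5, 29.2, 29.7 and 33.2 TPM in vehicle mice. This is a log2 difference of 0.32 ± 0.06 (SE; limma on log2(TPM + 1), adjusted p = 1.62e-04). Cspg4, with 9.41 to 10.3 TPM in sham mice and 12.7 to 18.3 TPM in vehicle mice, rose further in proportion (log2 difference 0.59 ± 0.10, limma adjusted p = 2.44e-05).

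All 3 lineage factors rose, by similar amounts. Olig1, a transcription factor present from progenitor to myelinating cell, rose from 180 ± 7.31 TPM to 286 ± 11.2 TPM (log2 difference 0.66 ± 0.05, limma adjusted p = 7.13e-12). Its neighbour Olig2, which specifies the lineage, had a log2 difference of 0.60 ± 0.06. Sox10, which switches on myelin genes together with its partners, had 0.58 ± 0.07. The ratio of Olig1 to Olig2 in TPM stayed between 4.10 and 5.10 in all 24 mice.

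The differentiating cell genes fell into a pair with large rises and a pair with smaller ones. Gpr17 stood at 32.1, 32.8, 33.3 and 35.4 TPM in sham mice and at 68.4, 75.2, 76.3, 81.8 and 99.6 TPM in vehicle mice (log2 difference 1.23 ± 0.08, limma adjusted p = 7.13e-12). Enpp6 stood at 4.90, 6.14, 6.42 and 6.92 TPM in sham mice and at 13.5, 15.7, 17.6, 19.3 and 19.9 TPM in vehicle mice (log2 difference 1.36 ± 0.12, limma adjusted p = 6.99e-10). Only these 2 members passed the criteria the study used for a differentially expressed gene (a p below 0.05, a ratio of means above 2 and a difference above 4 TPM), which 5.26% of all genes met. Bmp4, a secreted factor that progenitors release as they begin to differentiate, had a log2 difference of 0.71 ± 0.13, and Bcas1 had 0.56 ± 0.05.

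Other genes of the same stages were read from lists that the members are not part of. After injury, 11 of 16 other progenitor markers rose and none fell, with a median log2 difference of 0.46 beside −0.01 for all genes tested. Matn4, a matrix protein, rose from 8.93 to 23.8 TPM (log2 difference 1.31 ± 0.11, limma adjusted p = 4.12e-10), and Neu4, a sialidase, from 7.31 to 15.6 TPM (1.00 ± 0.09, adjusted p = 4.48e-10). Ptprz1, a receptor phosphatase that astrocytes also make, rose from 69.7 to 114 TPM. Of 19 tested markers of newly formed oligodendrocytes, 10 rose and 1, the glutamate transporter gene Slc1a1, fell (median 0.30). Tns3 (log2 difference 0.96 ± 0.06), Itpr2 (0.87 ± 0.06) and Sirt2 (0.64 ± 0.05) had the smallest adjusted p among them.

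Of 22 genes of myelinating oligodendrocytes, 19 rose (median 0.44). Klk6, a protease of mature oligodendrocytes, rose from 11.2 to 88.0 TPM, and Trf and Cldn11 had log2 differences of 1.33 ± 0.08 and 0.81 ± 0.05. Genes of other cells moved in the same tissue: all 14 microglia and macrophage markers, 11 of 14 fibroblast markers, 9 of 10 astrocyte markers and 6 of 12 pericyte and mural cell markers rose, and 10 of 11 neuron markers fell (median −0.64). Gfap, a filament of reactive astrocytes, had a log2 difference of 4.06 ± 0.10, and the mural cell gene Myh11 fell (−0.42 ± 0.11). All 12 proliferation genes rose (median 1.81), and they are shared by every dividing cell of the tissue. A TPM value is a share of the library, and the part of these shifts in the members' rise was not tested.

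Signals around the lineage were mixed. Of the 5 PDGF ligands and receptors other than Pdgfra, Pdgfd (log2 difference 0.63 ± 0.10) and the mural cell receptor Pdgfrb (0.42 ± 0.12) were among the 3 that rose, and Pdgfa, whose product is the main ligand of Pdgfra, fell from 41.0 to 35.8 TPM (−0.19 ± 0.05, limma adjusted p = 0.00131). Of 23 genes of BMP signalling, 9 rose and 3 fell. Id3, an inhibitor of differentiation induced by BMPs, rose from 90.3 to 214 TPM (1.21 ± 0.11), and the signal transducer Smad5 (0.49 ± 0.05) and the receptor Bmpr1a (0.48 ± 0.07) rose less. Among 22 tested regulators of the lineage, 12 rose and 2 fell. By adjusted p the first were Zfp488, a co-regulator of Olig2, which rose from 3.08 to 6.81 TPM (0.93 ± 0.09), and Sox9 (0.74 ± 0.09) and Sox2 (0.56 ± 0.07), both of which astrocytes also express.

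**Figure D2:**
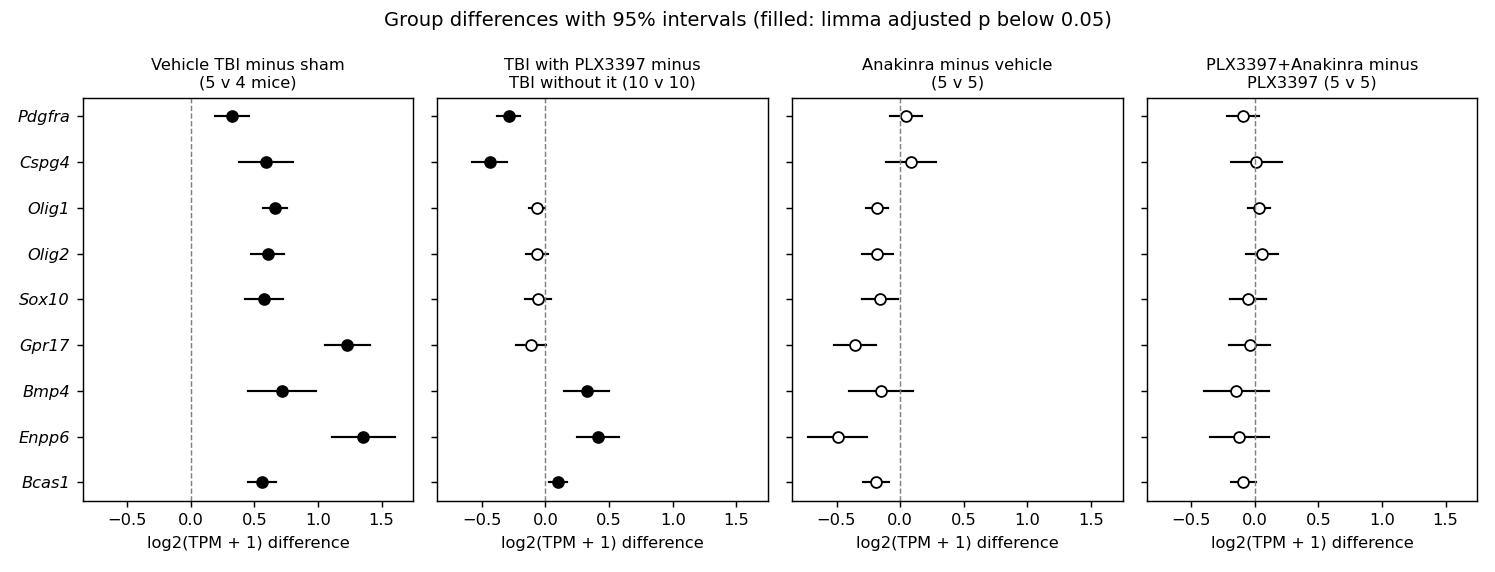
Difference of mean log2(TPM + 1) between groups (horizontal axis) for each member, with 95% intervals from limma. All 9 lie right of 0 for injury. For PLX3397, Pdgfra and Cspg4 lie left of 0 and Bmp4, Enpp6 and Bcas1 right of it, all called. Olig1, Olig2, Sox10 and Gpr17 also lie left of 0 there and are not called. No member is called in the panels for Anakinra and for Anakinra added to PLX3397.

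PLX3397 was then compared across the 20 TBI mice, 10 with the drug (alone or with Anakinra) against 10 without it. The 2 progenitor genes fell and 3 of the 4 differentiating cell genes rose. Pdgfra fell by 0.29 on the log2 scale and Cspg4 by 0.44, while Enpp6 rose by 0.41, Bmp4 by 0.32 and Bcas1 by 0.10. Gpr17 and the 3 lineage factors were not called. In this comparison 11.1% of all genes were called lower and 10.2% higher.

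Pdgfra had 22.3 to 26.4 TPM in the 10 mice given PLX3397 and 26.8 to 34.0 TPM in the 10 without it (log2 difference −0.29 ± 0.04, limma adjusted p = 1.53e-05). The ranges did not touch, which held for 2.55% of all genes. Within the groups, the values were 22.3, 24.7, 25.5, 26.0 and 26.4 TPM with PLX3397 alone and 22.3, 22.3, 23.0, 24.1 and 24.9 TPM with PLX3397+Anakinra. The second group lay in the range of the sham mice or just above it.

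Cspg4 stood at 9.54, 9.99, 12.6, 12.7 and 13.1 TPM with PLX3397 and at 10.5, 10.8, 11.6, 12.0 and 13.4 TPM with PLX3397+Anakinra. Without the drug it ranged from 12.7 to 18.3 TPM in vehicle mice and from 13.7 to 18.3 TPM in Anakinra mice (log2 difference −0.44 ± 0.07, limma adjusted p = 2.71e-05). The lowest vehicle mouse overlapped the treated mice, and no Anakinra mouse did.

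Enpp6 stood at 19.04, 19.4, 20.1, 20.95 and 21.1 TPM with PLX3397 and at 14.4, 18.5, 18.6, 20.4 and 20.8 TPM with PLX3397+Anakinra. The mean over mice with the drug was 19.3 TPM against 14.6 TPM without it (log2 difference 0.41 ± 0.08, limma adjusted p = 4.34e-04). The groups overlapped, and Anakinra mice held the low end, with 9.62 to 14.6 TPM.

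Bmp4 ranged from 8.29 to 11.2 TPM with PLX3397 and from 7.70 to 11.1 TPM with PLX3397+Anakinra, against 6.44 to 9.48 TPM in vehicle mice and 5.27 to 9.56 TPM in Anakinra mice (log2 difference 0.32 ± 0.09, limma adjusted p = 0.00844). For Bcas1 the rise was small, from 254 to 272 TPM (0.10 ± 0.03, limma adjusted p = 0.0415). The exact permutation test over mice gave p = 0.0595 for Bcas1. Its call was lost under median-ratio scaling (0.08, limma adjusted p = 0.134), with only the 20 TBI mice in the fit (adjusted p = 0.0611) and with all genes above 0 TPM in 1 library tested (0.065). It was also lost without any of vehicle mice J01B, J17B and J19B, PLX3397 mice J02, J12 and J19, Anakinra mice J14, J21 and J22, or combination mice J03, J04 and J10 (adjusted p up to 0.0876). Gpr17 had a log2 difference of −0.11 with an interval of −0.23 to 0.00, and Sox10 one of −0.06 with an interval of −0.16 to 0.04. Olig1 (−0.07 ± 0.03, limma adjusted p = 0.0999) was called without PLX3397 mouse J02 (0.0469) or Anakinra mouse J21 (0.0428).

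**Figure D3:**
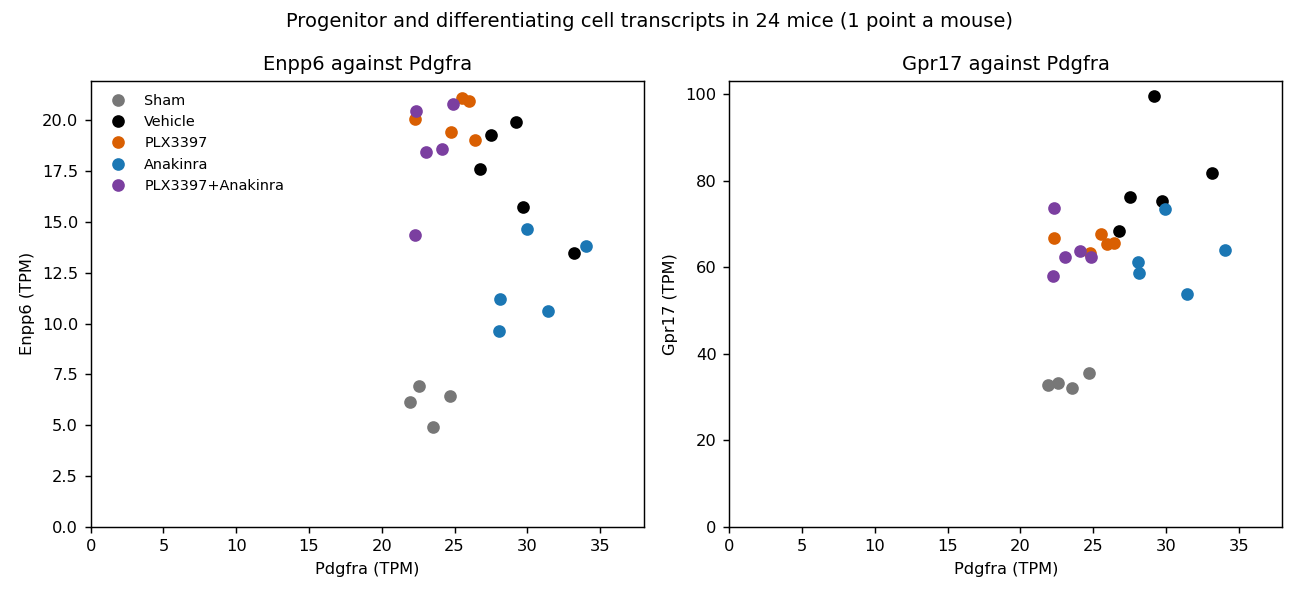
Enpp6 (left) and Gpr17 (right) against Pdgfra, all in TPM, with 1 point for each of 24 mice. Mice given PLX3397 sit at 22.3 to 26.4 TPM of Pdgfra, near the sham mice, with Enpp6 at 14.4 to 21.1 TPM against 4.90 to 6.92 TPM in sham mice.

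The balance between both stages was also read within each mouse, as a description. Enpp6 per Pdgfra, a ratio of TPM values, ranged from 0.208 to 0.306 in sham, 0.406 to 0.700 in vehicle and 0.338 to 0.489 in Anakinra mice. It ranged from 0.721 to 0.900 with PLX3397 and from 0.645 to 0.916 with PLX3397+Anakinra. Gpr17 per Pdgfra did not follow this order: it ranged from 1.36 to 1.49 in sham, 2.46 to 3.41 in vehicle, 2.49 to 2.99 in PLX3397, 1.71 to 2.45 in Anakinra and 2.51 to 3.31 in PLX3397+Anakinra mice. The mean log2(TPM + 1) of the 4 differentiating cell genes minus that of the 2 progenitor genes was 0.44 ± 0.10 in sham, 0.95 ± 0.22 in vehicle, 1.34 ± 0.14 in PLX3397, 0.58 ± 0.13 in Anakinra and 1.28 ± 0.18 in PLX3397+Anakinra mice (mean ± SD). Bmp4 and Cspg4 are also made by cells outside the lineage, and without them the same measure was 0.56 ± 0.10, 1.28 ± 0.20, 1.501 ± 0.106, 0.89 ± 0.17 and 1.51 ± 0.12 in these groups. Pdgfra, which fibroblasts also make, was then the only progenitor gene. The difference between PLX3397 and vehicle mice was then 0.22 in place of 0.39, that between PLX3397+Anakinra and vehicle mice 0.23 in place of 0.33, and that between Anakinra and sham mice 0.33 in place of 0.14.

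With PLX3397 alone against vehicle (5 mice each), 4 members fell and none was called higher, where 6.66% of all genes were called lower and 3.23% higher. Cspg4 fell by 0.40 (limma adjusted p = 0.0067), Gpr17 by 0.27 (adjusted p = 0.0277), Pdgfra by 0.22 (adjusted p = 0.0214) and Olig1 by 0.18 (adjusted p = 0.00681) on the log2 scale. Values of Pdgfra, Olig1 and Gpr17 did not overlap between the groups, as was so for 6.89% of all genes. Gpr17 was narrow under the drug, at 63.3, 65.3, 65.7, 66.7 and 67.7 TPM, below every vehicle mouse. Bmp4 (log2 difference 0.32 ± 0.12, limma adjusted p = 0.106) and Enpp6 (0.23 ± 0.11, adjusted p = 0.232) were not called, though Bmp4 passed at an unadjusted p below 0.05. Olig2 was near the threshold (−0.18 ± 0.06, limma adjusted p = 0.0549) and was called without vehicle mouse J17B (0.0208) or sham mice J07 (0.0269) or J08 (0.0444). When the fit was limited to these 10 mice, Pdgfra (limma adjusted p = 0.0739) and Gpr17 (0.0665) were no longer called, and with all genes above 0 TPM in 1 library tested Gpr17 was not (0.0517). Single mice also ended calls: without vehicle mouse J01B the adjusted p was 0.069 for Pdgfra and 0.0537 for Gpr17, without J18B it was 0.108 for Gpr17, without J19B it was 0.0504 for Pdgfra, and without PLX3397 mice J01, J12 and J19 it was 0.066 (Gpr17), 0.0722 (Pdgfra) and 0.0507 (Gpr17).

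Adding PLX3397 to Anakinra was read in mice that the comparison of PLX3397 alone with vehicle did not hold, though the 10 against 10 comparison holds both. Against Anakinra alone, PLX3397+Anakinra mice had less Pdgfra (log2 difference −0.36 ± 0.06, limma adjusted p = 1.23e-04) and less Cspg4 (−0.47 ± 0.10, adjusted p = 0.00109), with no overlap for either. Enpp6 was higher (0.59 ± 0.11, adjusted p = 5.21e-04), as was Bcas1 (0.15 ± 0.05, adjusted p = 0.044). The remaining 5 members were not called, and Bmp4 had a log2 difference of 0.33 ± 0.12 (adjusted p = 0.0784). Of all genes, 8.1% were called lower and 4.67% higher, and 11.2% had groups that did not overlap. The Bcas1 call did not hold under median-ratio scaling (0.12, limma adjusted p = 0.158), with only these 10 mice in the fit (adjusted p = 0.0767), with all genes above 0 TPM in 1 library tested (0.0703) or without any of vehicle mouse J20B, PLX3397 mouse J20, Anakinra mice J06, J14, J21 and J22, combination mice J03, J04, J10 and J17, or sham mice J08 and J16 (adjusted p up to 0.145). Without Anakinra mouse J05, Bmp4 was called (0.43, adjusted p = 0.016).

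Other progenitor and oligodendrocyte genes were read in the same 10 against 10 comparison. Of 16 other progenitor markers, 6 fell and none rose (median log2 difference −0.08 beside 0.02 for all genes). Matn4 fell from 22.2 to 16.4 TPM (−0.42 ± 0.07, limma adjusted p = 1.86e-04), C1ql1, a secreted synaptic organiser that progenitors make, from 22.3 to 16.5 TPM (−0.40 ± 0.08, adjusted p = 0.001), and Neu4 from 14.4 to 12.0 TPM (−0.23 ± 0.06, adjusted p = 0.00414). Between single groups, 3 of these 16 were lower with PLX3397 than with vehicle (median −0.09). With the combination, 5 were lower than with vehicle and 2 were lower than with Anakinra. Anakinra mice had none called against vehicle, but their median was also −0.09. In the 10 against 10 comparison, 7 of 19 markers of newly formed oligodendrocytes rose and none fell (median 0.12). In the single comparisons, 7 were higher with the combination than with Anakinra, but only 1, Sirt2, was higher with PLX3397 than with vehicle, and against vehicle the combination had 2 higher and 2 lower. Anakinra mice were low for this list (median −0.16 against vehicle), with Fyn called lower (−0.21 ± 0.04, limma adjusted p = 0.0381). In the 10 against 10 comparison Sirt2, a deacetylase enriched in oligodendrocytes, rose from 288 to 336 TPM (0.22 ± 0.03, limma adjusted p = 6.57e-06), Fyn, a kinase of the myelination programme, from 81.6 to 92.1 TPM (0.18 ± 0.03), and Ust had a log2 difference of 0.23 ± 0.04.

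Of the 22 myelinating cell genes, 4 rose and none fell (median 0.06). Of these genes 3 were higher with the combination than with Anakinra, 1, Mbp, was higher with PLX3397 than with vehicle, and with the combination none was higher than with vehicle and 1 was lower (median −0.05). The median for Anakinra against vehicle was −0.12, with none called. Over all 20 TBI mice Mbp, a major myelin protein, rose from 1685 to 1914 TPM (0.18 ± 0.04, limma adjusted p = 4.92e-04), and Fa2h (0.16 ± 0.04) and Cnp (0.11 ± 0.03) rose less. Of the PDGF list Pdgfa alone was called, and was higher by 0.09 (limma adjusted p = 0.0498). Of 23 BMP signalling genes 3 rose, namely Id1 (0.22 ± 0.06), Id2 (0.14 ± 0.04) and the BMP antagonist Nog (0.21 ± 0.07). Of 22 lineage regulators the Notch effector Hes5 rose (0.46 ± 0.11, limma adjusted p = 0.00281) and the chromatin remodeller Chd7 fell (−0.21 ± 0.05, adjusted p = 0.00177).

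**Figure D4:**
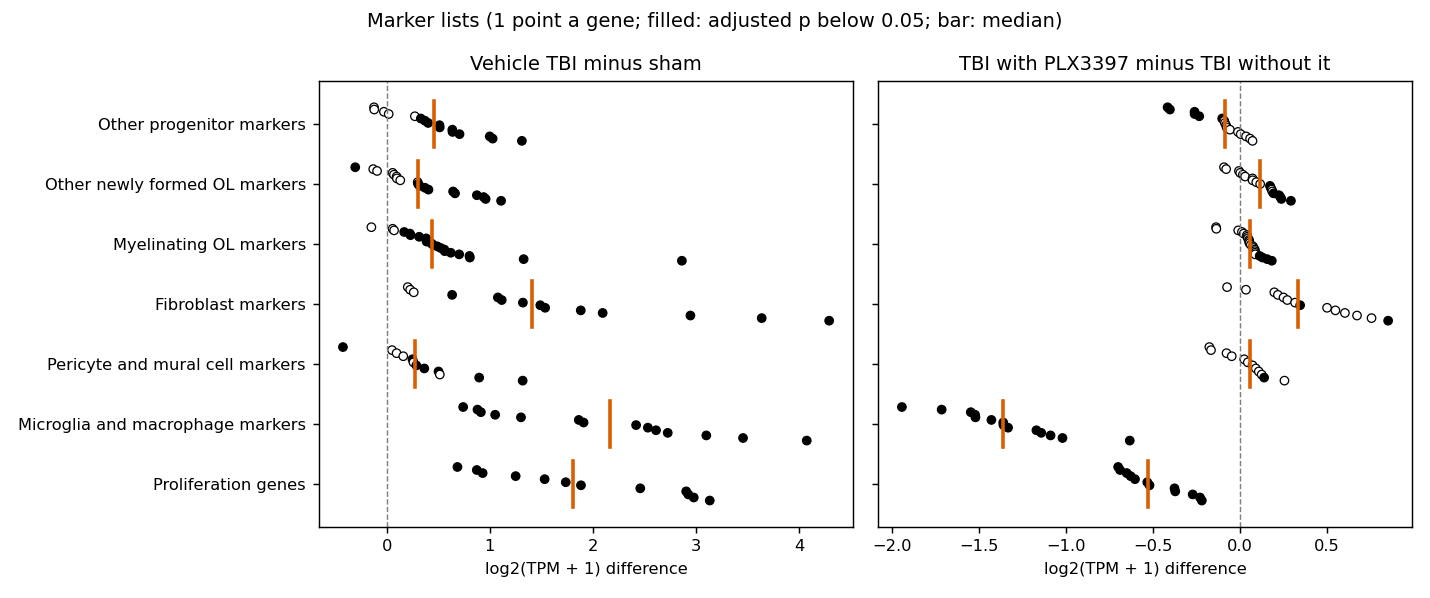
Difference of mean log2(TPM + 1) (horizontal axes, different ranges) for each gene of 7 marker lists after injury (left) and with PLX3397 (right). With PLX3397 the called progenitor markers lie left of 0, the called markers of newly formed and myelinating oligodendrocytes (OL) right of 0, and all microglia and proliferation genes left of 0.

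Genes of other cells moved with PLX3397 in the same mice. Csf1r fell from 224 to 83.3 TPM (log2 difference −1.43 ± 0.06, limma adjusted p = 6.83e-14), and all 14 microglia and macrophage markers fell (median −1.36). Their summed level was 408 to 424 TPM in sham, 1907 to 2568 in vehicle, 890 to 1365 in PLX3397, 2071 to 2378 in Anakinra and 780 to 1025 in PLX3397+Anakinra mice. All 12 proliferation genes fell too (median −0.53), with Mki67 at 6.50 TPM with the drug and 11.2 TPM without it. Of 11 neuron markers 8 rose and none fell (median 0.15), led by the neurofilament gene Nefl (0.25 ± 0.04, limma adjusted p = 5.63e-05), with sums of 4640 to 5625 TPM in vehicle, 5306 to 6257 in PLX3397, 4845 to 5370 in Anakinra and 5671 to 6013 in PLX3397+Anakinra mice. That median is above the difference of Bcas1 and the medians of the newly formed and myelinating cell lists. Of 10 astrocyte markers 2, Aldoc (0.16 ± 0.03) and S100b (0.13 ± 0.04), rose. The part of these shifts in the changes of the members was not tested.

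No marker of fibroblasts or pericytes, other cells that make Pdgfra and Cspg4, was called lower. Of 14 fibroblast markers Igf2 (0.35 ± 0.09) and Postn (0.85 ± 0.25) rose (median of the list 0.33), and their summed level was 212 to 232 TPM in sham, 294 to 1114 in vehicle, 812 to 1681 in PLX3397, 1226 to 2183 in Anakinra and 1074 to 1798 in PLX3397+Anakinra mice. Of 12 pericyte and mural cell markers Vtn alone rose (0.14 ± 0.03, median of the list 0.06), with sums of 252 to 263 TPM in sham, 270 to 367 in vehicle, 325 to 438 in PLX3397, 348 to 406 in Anakinra and 327 to 410 in PLX3397+Anakinra mice. With PLX3397 alone against vehicle, 9 of the 14 fibroblast markers were higher (median 0.68) and 2 of the pericyte markers (median 0.08). With the combination against Anakinra none of either list was called, and the medians were −0.18 and −0.03. No marker in the microglia, fibroblast and pericyte lists was at 0 in all mice.

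Anakinra alone against vehicle gave no called member, in a comparison with 0.0695% of all genes called higher and 0.0463% lower. At an unadjusted limma p below 0.05, 6 of the 9 were lower, as were 6.94% of all genes. Enpp6 had a log2 difference of −0.49 ± 0.11 (limma adjusted p = 0.0743), with Anakinra mice at 9.62, 10.6, 11.2, 13.8 and 14.6 TPM, and the ranges overlapped. Gpr17 had −0.36 ± 0.08 (adjusted p = 0.0627), with 53.9, 58.7, 61.1, 64.0 and 73.5 TPM. Olig1 had −0.18 ± 0.04 (adjusted p = 0.0813), and its highest Anakinra mouse (264 TPM) lay below the lowest vehicle mouse (275 TPM). The groups did not overlap for 2.57% of all genes. The progenitor genes lay close to vehicle, with intervals of the log2 difference from −0.08 to 0.17 for Pdgfra and from −0.11 to 0.28 for Cspg4. Leaving out single mice brought Gpr17 under the threshold (lowest limma adjusted p = 0.024, without vehicle mouse J17B; 0.0347 without Anakinra mouse J05; 0.0482 without vehicle mouse J19B) and Enpp6 too (0.0419 without vehicle mouse J01B; 0.0497 without PLX3397+Anakinra mouse J09, through the shared spread).

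The combination was compared with vehicle and with PLX3397 alone. Against vehicle, 4 members fell and none was called higher, beside 9.6% and 7.88% of all genes. They were Cspg4 (log2 difference −0.39 ± 0.10), Gpr17 (−0.31 ± 0.08), Pdgfra (−0.31 ± 0.06) and Olig1 (−0.14 ± 0.04), with limma adjusted p of 0.0055, 0.00687, 6.11e-04 and 0.0195. Enpp6 differed by 0.10 with an interval of −0.13 to 0.34. This comparison and those of the single drugs share the vehicle mice. Without vehicle mice J18B or J20B or combination mouse J04, the limma adjusted p of Olig1 was 0.0542, 0.0631 and 0.0568, and without combination mouse J10 Sox10 was called lower (−0.21, adjusted p = 0.045).

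Against PLX3397 alone, no member was called for the combination by limma, and none had an unadjusted p below 0.05, with 0.00579% of all genes called higher and 0.145% lower. The intervals of the log2 difference were −0.22 to 0.03 for Pdgfra, −0.18 to 0.21 for Cspg4 and −0.35 to 0.11 for Enpp6. The exact permutation test over the 10 mice gave p = 0.0317 for Bcas1, without correction over the 9 members, where 0.00794 is the smallest value it can give.

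Whether the drugs acted beyond the sum of each alone was tested as an interaction. No member was called, nor was any gene (0% of 17267), and the smallest limma adjusted p over all genes was 0.153. At an unadjusted p below 0.05 there were 1395 genes. Olig1 (interaction 0.22 ± 0.06 log2), Olig2 (0.24 ± 0.09), Gpr17 (0.32 ± 0.11) and Enpp6 (0.37 ± 0.16) were among them, all positive, as were 3.86% of all genes. For these 4 the combination lay above the sum of the separate differences, with limma adjusted p from 0.365 to 0.573.

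Set against sham, all 9 members were higher in Anakinra mice, and 7 were higher in PLX3397 and in PLX3397+Anakinra mice, beside 25.1%, 22.7% and 20.7% of all genes. The members not called in the groups given PLX3397 were Pdgfra and Cspg4. Pdgfra differed from sham by 0.10 ± 0.06 with PLX3397 (limma adjusted p = 0.203) and by 0.01 ± 0.06 with the combination (adjusted p = 0.934). Cspg4 differed by 0.19 ± 0.10 (adjusted p = 0.137) and 0.20 ± 0.10 (adjusted p = 0.122). Without PLX3397 mouse J19 the former was called (0.25, adjusted p = 0.0499). In the combination group the 5 Cspg4 values lay above all sham values, by a narrow margin. Values of these groups did not overlap for 30.9% of all genes.

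Across the 5 groups the order of Pdgfra was sham (23.2 ± 1.22 TPM, SD), PLX3397+Anakinra (23.3 ± 1.14), PLX3397 (25.0 ± 1.63), vehicle (29.3 ± 2.49) and Anakinra (30.3 ± 2.51). Of these neighbours, only PLX3397 and vehicle were called different. For Enpp6 the order was sham (6.09 ± 0.861 TPM), Anakinra (12.0 ± 2.15), vehicle (17.2 ± 2.64), PLX3397+Anakinra (18.5 ± 2.56) and PLX3397 (20.1 ± 0.909). There only sham and Anakinra were called different as neighbours (log2 difference 0.86 ± 0.12, limma adjusted p = 1.24e-06).

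The genes whose levels were most like those of Pdgfra over the 24 libraries were the chemokine receptor gene Ccr2 (Pearson r = 0.90), the inflammasome gene Nlrp3 (0.90) and Lst1 (0.90). The r of deviations from the group means was 0.66, 0.54 and 0.54. Their mean levels over the 24 libraries were 1.22, 1.90 and 15.7 TPM, so Ccr2 and Nlrp3 were low. For Enpp6 the nearest were Sirt2 (0.97), Mpzl1 (0.96) and Bfsp2 (0.96), with 0.62, 0.78 and 0.75 for the deviations. Between members, deviations from the group means had r = 0.77 for Gpr17 and Bcas1, 0.74 for Sox10 and Bcas1, 0.31 for Pdgfra and Cspg4 and 0.01 for Pdgfra and Enpp6. These values are descriptions over 24 libraries that share the group structure.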

How the data were processed

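RNA of 24 mice was sequenced by the study (paired-end reads, Illumina NovaSeq) and processed by the authors in CLC Genomics Workbench on mm10 (GRCm38 in the submitters' processing notes). The authors deposited values per gene labelled TPM, which sum to 1000000 in each library. The paper states that CLC names this unit CPM, so scaling by transcript length is not certain. Read counts were not analysed here, so depth is unknown and no counting interval is given. Other deposited tables (all genes with per-group statistics, and filtered lists) hold the comparisons of the authors and were not used.

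Genes averaging 0.5 TPM or more across all mice (17267 of 36333) were tested as log2(TPM + 1) with limma 3.58.1 in R 4.3.3, with 1 mean per group, a trended prior, all 24 libraries in 1 fit and Benjamini-Hochberg adjustment over all genes tested. A pseudocount of 1 understates changes of low genes. A gene was called at an adjusted p below 0.05. Intervals are 95% limma intervals. Each sample is a separate mouse by its label. The letter B in animal names occurs in vehicle mice only, and were it a batch it could not be told apart from vehicle treatment. Exact permutation tests are two-sided, over mice. The procedure was tested on simulated data.

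The members, lists and tests were chosen with earlier results of these data known. All 9 members are described. From each list, up to 3 called genes with the smallest adjusted p after injury and in the PLX3397 comparison are named, and Csf1r as the drug target. Others named (Slc1a1, Gfap, Myh11, Nefl, Aldoc, S100b) were named after their values were seen. Likeness is Pearson's r over 24 libraries, top 3 genes for Pdgfra and Enpp6. Alternatives were another pseudocount, filter, scaling, set of groups, call rule, and leaving out each mouse. Loci are from GENCODE vM21, promoters from RefSeq (GRCm38.p6). Figures were drawn with matplotlib 3.10.9.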

Additional observations from a re-analysis of the deposited data

How the results depend on the processing

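Under a pseudocount of 0.1, either filter (28322 or 12523 genes tested) and median-ratio scaling, each count of called members stayed within 1.5 times its value and no called difference changed sign. With only the compared groups in the fit, PLX3397 against vehicle gave 2 called members in place of 4 (Pdgfra and Gpr17 were lost), and Bcas1 was lost in the 10 against 10 comparison and for the combination against Anakinra. Testing all genes above 0 TPM in 1 library ended the call of Gpr17 for PLX3397 against vehicle and the same 2 calls of Bcas1, as median-ratio scaling did for Bcas1. The study's criteria left 2 after injury, 2 for PLX3397 and 2 for PLX3397+Anakinra against sham, and 0 for Anakinra against sham. Of all 17267 genes tested, 909, 632, 500 and 914 met them in these comparisons. The criteria left 0 members for PLX3397 or the combination against vehicle, where 176 and 285 genes met them. They also left 0 for the combination against Anakinra (271 genes) and for TBI mice with PLX3397 against those without (207 genes). At unadjusted p, Anakinra against vehicle gave 6 and the interaction 4. Exact permutation, without correction, gave 7 members for PLX3397 and 5 for Anakinra against vehicle, and 1 for the combination against PLX3397. It ended the call of Bcas1 in the 10 against 10 comparison. It was run on the members only, so no share of all genes can be set beside these counts.

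Leaving out single mice gave 2 to 5 called members for PLX3397 against vehicle (4 with all mice), 0 to 1 for Anakinra against vehicle, 3 to 5 for the combination against vehicle and against Anakinra, 7 to 8 for PLX3397 against sham and 4 to 5 for the 10 against 10 comparison. The counts stayed at 9 after injury, for Anakinra against sham and for the F-test, at 7 for the combination against sham, and at 0 for the combination against PLX3397 and the interaction. For the mean of differentiating minus progenitor genes, leaving out Bmp4 and Cspg4 moved the difference of vehicle and sham mice from 0.51 to 0.73 and that of Anakinra and sham mice from 0.14 to 0.33, more than the pooled SD. The other 5 differences computed moved by less, as did all 7 under the other pseudocount and scaling. The Bcas1 call was lost in 12 of 24 omissions in the 10 against 10 comparison and in 12 of 24 for the combination against Anakinra.

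Animal numbers J01, J19 and J20 occur in both vehicle (with B) and PLX3397. Their deviations correlated by 0.17, −0.13 and −0.07, and so few pairs cannot show whether these mice share more than a number. J17 occurs in vehicle (J17B) and PLX3397+Anakinra, with a correlation of 0.32, and 1 shared number allows no block. With the replicate block, those 6 mice gave 1 called member, as without the block (703 and 747 genes called). Over all genes, the count called for PLX3397 against vehicle was 1707, or 998 with only the compared groups. For Anakinra against vehicle it was 20, and 2 to 11 under the other pseudocount, scaling, fit on the compared groups or no filter. For the combination against PLX3397 it was 26, and 9 to 17 with either filter or the compared groups alone. Under the study's criteria 909 genes in place of 9378 passed after injury and 207 in place of 3675 with PLX3397. Depth is unknown, so precision of low genes cannot be given.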
